A study of Homo sapiens with 6 samples.

Results

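The LAPC4 lineage is 1 of 3 prostate cancer lineages sequenced side by side, and it comprises 2 of the 6 libraries, the castration-sensitive line LAPC4 and its castration-resistant derivative LAPC4-CR. It was taken by its line name and set against the 4 libraries of the other lineages, LNCaP and LNCaP-abl, and VCaP and VCaP-CR, with the state (sensitive or resistant) as a covariate. The question was which genes mark the LAPC4 lineage in the sensitive and in the resistant library alike. The medium of LAPC4 and LNCaP was RPMI and that of VCaP was DMEM, with 10% fetal bovine serum. LAPC4-CR, LNCaP-abl and VCaP-CR were all grown in RPMI with 10% charcoal-stripped serum, which is depleted of steroids, and B27 supplement. The resistant libraries therefore shared 1 medium, whereas in the sensitive state the medium of VCaP differed. Every line gave 1 library of total RNA. The labels do not say that libraries came from separate cultures, and the libraries of a lineage share their cell line, so the p-values below measure only the spread between these 6 libraries. State and type of serum, with B27, cannot be told apart, and in the VCaP pair the base medium changed with them.

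Prostate cancer lines are mostly descended from luminal epithelium, the secretory cell layer of the gland. Luminal cells carry keratins 8 and 18 and, in response to androgens, secrete proteases such as prostate-specific antigen (KLK3). Basal cells lie beneath them, carry other keratins and attach to the basement membrane. LAPC4 and LNCaP both trace back to lymph node metastases and VCaP to a vertebral one. VCaP is known for the fusion that places the ETS factor ERG under an androgen-driven promoter, and LNCaP for a rearranged ETV1, another ETS factor.

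The libraries held 8661337 (LNCaP) to 22433655 (LAPC4-CR) counts, of which 62.8% to 79.5% lay in protein-coding genes. Of 19959 protein-coding genes, 16328 passed the filter on low counts and were tested. Levels below are FPKM (counts relative to gene length and to the protein-coding total of the library) after TMM scaling, which adjusts library sizes for composition. Differences are edgeR log2 differences, LAPC4 lineage minus the others, with their standard error (SE), and their median over all tested genes was -0.05.

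ERG went with the labels of the VCaP pair, and ETV1 with that of LNCaP but not of LNCaP-abl. In the VCaP pair the level of ERG was 24.8 (VCaP) and 8.28 (VCaP-CR), and it did not exceed 0.268 elsewhere, the LAPC4 pair included. The level of ETV1 was 22.3 in LNCaP and at most 0.433 elsewhere, so it gave no mark of the library labelled LNCaP-abl (0.219). The level of KLK3 was 819 in LNCaP, 480 in VCaP and 151 in LAPC4, against 0.905, 29.0 and 2.90 in the resistant lines of the same order. KLK3 thus overlapped between the lineages.

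The edgeR quasi-likelihood test called 58 genes higher (0.355% of 16328) and 16 lower (0.098%) in the LAPC4 lineage at a Benjamini-Hochberg adjusted p under 5%. At an unadjusted p under 0.05 there were 1195 higher (7.32%) and 1048 lower (6.42%). All 58 and all 16 were without overlap between the 2 LAPC4 and the 4 other libraries, a pattern that 12.8% of all tested genes showed upwards and 12% downwards. Leaving out single libraries moved these counts. Without LNCaP, without VCaP, without LAPC4 or without LAPC4-CR, edgeR called 0 genes in either direction, with 595 to 1051 higher and 387 to 1159 lower at an unadjusted p under 0.05. Without LNCaP-abl it called 23 higher and 7 lower, and without VCaP-CR 27 and 9. DESeq2 on the 6 libraries called 528 higher (3.23%) and 537 lower (3.29%), among them all of edgeR's 58 and 16.

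Histone genes were among the leaders of the higher side. HIST1H1T (ENSG00000187475, chromosome 6, 26215619 to 26216343 in hg18) encodes the linker histone H1t, known from the germ cells of the testis. Its level was 728 in LAPC4 and 282 in LAPC4-CR, against 3.20 (LNCaP), 2.76 (LNCaP-abl), 4.75 (VCaP) and 1.17 (VCaP-CR). The lower of the LAPC4 libraries lay 5.62 log2 units, on the scale of log2(level + 1), above the highest other library, and the log2 difference was 7.35 (SE 0.45, edgeR adjusted p 0.0105). The core histone gene HIST1H4D lies in the same histone cluster (26296917 to 26297283) and stood at 1187 and 1065 in LAPC4 and LAPC4-CR, against 2.89 to 31.4 in the other libraries (log2 difference 6.71, SE 0.87, edgeR adjusted p 0.0466). HIST1H3J stood at 159 and 195, against 4.15 to 9.78 (4.79, SE 0.43, edgeR adjusted p 0.0216). Histone genes have near-identical copies and how reads with several matches were counted is not given in the sources used here, so the share of each single copy is uncertain.

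DHRS2, CALML5 and LGALS3 were among the 12 leading higher genes as well. DHRS2, a short-chain dehydrogenase/reductase (chromosome 14, 23169164 to 23184688), had a level of 353 in LAPC4 and 141 in LAPC4-CR. In the other libraries it was 1.99 (LNCaP), 1.09 (LNCaP-abl), 0.844 (VCaP) and 0.999 (VCaP-CR) (log2 difference 7.54, SE 0.52, edgeR adjusted p 0.0105). CALML5, a calmodulin-like protein of differentiating skin cells (chromosome 10, 5530658 to 5531533), stood at 87.5 and 78.6 in LAPC4 and LAPC4-CR. In LNCaP, LNCaP-abl, VCaP and VCaP-CR it rested on 2, 2, 2 and 7 counts, a level of 0.269 to 0.755, beside 709 and 1190 counts in the LAPC4 pair (log2 difference 7.55, SE 0.51, edgeR adjusted p 0.0105). CALML5 thus passed the filter on low counts only through the LAPC4 pair. LGALS3, which encodes the sugar-binding lectin galectin-3, stood at 34.7 in LAPC4 and 85.6 in LAPC4-CR, against 0.553 to 1.16 (6.10, SE 0.46, edgeR adjusted p 0.0128). DHRS2 was the higher of its pair in the sensitive library and LGALS3 in the resistant one, but in both genes the lower of the pair was far above every other library.

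PSCA, SFN, BASP1, FAM46B, CSRP2 and SEMA5A made up the rest of the 12. PSCA, a lipid-anchored surface antigen of prostate and bladder epithelium, stood at 42.5 in LAPC4 and 124 in LAPC4-CR, against 1.15 (LNCaP), 2.34 (LNCaP-abl), 1.19 (VCaP) and 1.34 (VCaP-CR) (log2 difference 5.66, SE 0.41, edgeR adjusted p 0.0105). SFN, the 14-3-3 sigma protein of squamous and basal epithelia, stood at 27.6 and 38.7, against 0.287 to 1.34 (5.12, SE 0.63, edgeR adjusted p 0.0410). BASP1, a membrane-attached signalling protein, stood at 96.9 and 39.2, against 0.878 to 2.79 (5.41, SE 0.45, edgeR adjusted p 0.0173). The groups were far apart in each of these. FAM46B, a poly(A) polymerase of the nucleotidyltransferase family, stood at 36.5 and 25.9, against 0.398 to 0.735 (5.86, SE 0.37, edgeR adjusted p 0.0105). With 8 to 12 counts in each other library, FAM46B passed the filter on low counts only through the LAPC4 pair. CSRP2, a LIM-domain protein, stood at 30.9 and 26.0, against 0.381 to 1.12 (5.17, SE 0.51, edgeR adjusted p 0.0237).

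SEMA5A encodes a semaphorin, a membrane-bound guidance cue (chromosome 5, 9088138 to 9599187 in hg18). Its level was 25.3 in LAPC4 and 16.1 in LAPC4-CR, against 0.479 (LNCaP), 0.351 (LNCaP-abl), 0.483 (VCaP) and 0.555 (VCaP-CR) (log2 difference 5.44, SE 0.35, edgeR adjusted p 0.0105). Its upstream neighbour on the opposite strand, the long non-coding RNA CTD-2001E22.2, starts 125 bases away in RefSeq and had the same pattern, at 14.8 and 5.90 in the LAPC4 pair and 0.423 to 0.966 elsewhere. The 2 start sites thus share the stretch just upstream of SEMA5A, which is shown here because both transcripts were high in the same 2 libraries. The capitals mark each CG dinucleotide, which reads the same on both strands. The sequence is RefSeq's, on the minus strand, chr5:9546076-9546325 in GRCh38.p14, the 250 bases that end at the start site.
SEMA5A upstream: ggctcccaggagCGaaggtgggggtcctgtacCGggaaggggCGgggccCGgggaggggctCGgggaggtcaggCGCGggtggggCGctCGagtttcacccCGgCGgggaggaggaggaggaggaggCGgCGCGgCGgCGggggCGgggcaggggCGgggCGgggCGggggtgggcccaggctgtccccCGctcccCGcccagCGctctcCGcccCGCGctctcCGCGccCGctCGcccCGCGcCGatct

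This stretch holds 33 CG dinucleotides, and 39 over the window of 300 bases that also takes in the first 50 bases of the transcript. Of 35116 RefSeq promoter windows of that length, 48.9% hold at least 15, and the median is 14.

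**Figure D1:**
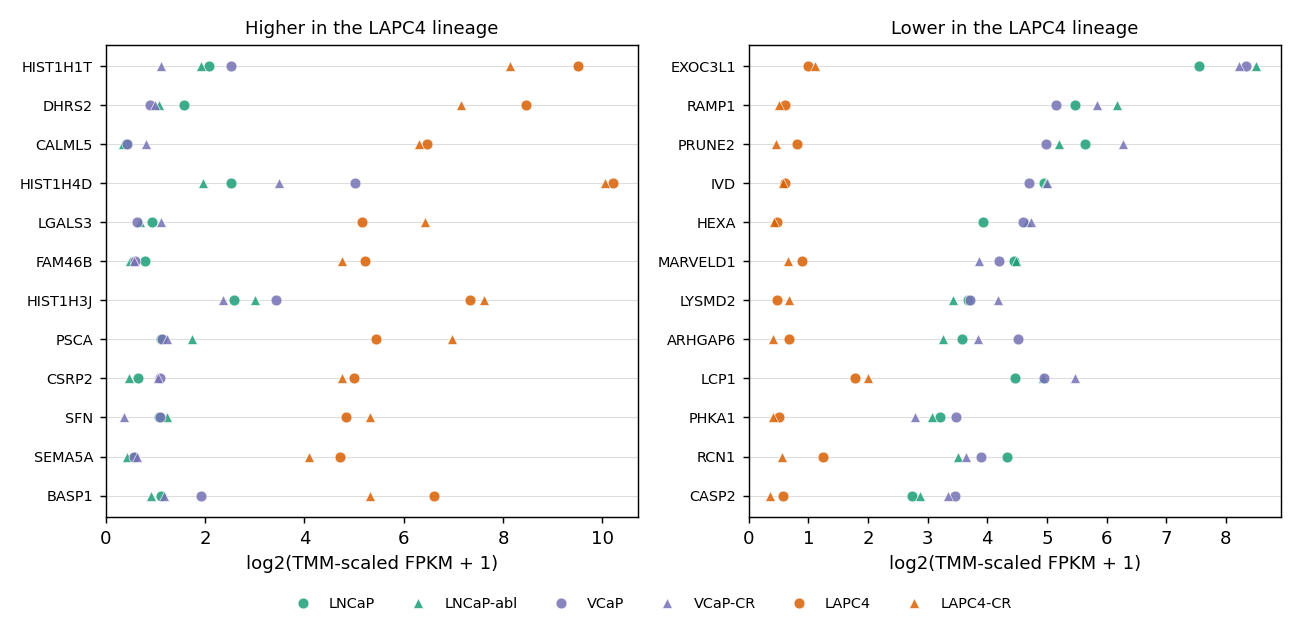
Level of the 12 genes called higher and the 12 called lower with the widest gap between the LAPC4 lineage and the other libraries, as log2(TMM-scaled FPKM + 1), 1 point per library and no error bars since each line has 1 library. Circles are sensitive and triangles resistant lines, and the orange LAPC4 pair stands clear of the other 4 points for every gene shown, from a gap of 2.16 (CASP2) to 6.45 (EXOC3L1).

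On the lower side the leading genes were close to the floor in both LAPC4 libraries. EXOC3L1 (ENSG00000179044, chromosome 16, 65775783 to 65781608), which resembles a subunit of the vesicle-tethering exocyst, had a level of 0.997 in LAPC4 and 1.16 in LAPC4-CR. It was 187 (LNCaP), 363 (LNCaP-abl), 324 (VCaP) and 296 (VCaP-CR), a gap of 6.45 log2 units (log2 difference -8.08, SE 0.57, edgeR adjusted p 0.0105). The neighbouring gene E2F4, a cell cycle transcription factor (65783569 to 65790322), stood at 25.2 and 19.7 in the LAPC4 pair and 13.4 to 27.9 in the other libraries, with a log2 difference of 0.17. The near absence therefore did not extend to E2F4. RAMP1, the partner protein that turns the calcitonin-like receptor into a receptor for calcitonin gene-related peptide, rested on 6 and 9 counts in LAPC4 and LAPC4-CR and on 286 to 749 in the others. Its level was 0.526 and 0.422 against 34.7 to 71.5 (log2 difference -6.72, SE 0.54, edgeR adjusted p 0.0165). PRUNE2 stood at 0.758 and 0.370, against 30.5 to 76.6 (-6.41, SE 0.75, edgeR adjusted p 0.0366). PRUNE2 holds the prostate-specific antisense RNA PCA3 within an intron, and whether reads were counted by strand is not given in the sources used here, so the 2 cannot be told apart.

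Enzymes of leucine, ganglioside and glycogen breakdown were among the 12 leading lower genes. IVD (chromosome 15, 38484978 to 38515438) encodes isovaleryl-CoA dehydrogenase, a mitochondrial enzyme of leucine breakdown. It stood at 0.530 in LAPC4 and 0.482 in LAPC4-CR and was nearly constant elsewhere, at 29.9 (LNCaP), 30.7 (LNCaP-abl), 25.1 (VCaP) and 30.9 (VCaP-CR) (log2 difference -5.84, SE 0.40, edgeR adjusted p 0.0105). HEXA (chromosome 15, 70422829 to 70455871), the alpha subunit of the lysosomal enzyme that degrades gangliosides, stood at 0.386 and 0.338 against 14.3 to 25.7 (-5.90, SE 0.50, edgeR adjusted p 0.0173). PHKA1, a regulatory subunit of phosphorylase kinase in glycogen breakdown, stood at 0.426 and 0.328 against 5.88 to 10.1 (-4.38, SE 0.42, edgeR adjusted p 0.0230). All 3 enzymes were thus at a level under 1 in both states of LAPC4 and above 5 in every other library. PARP6, named here after its values were seen, lies near HEXA (70310297 to 70350682) and had the opposite pattern. It stood at 9.40 and 7.26 in the LAPC4 pair and 0.176 to 0.402 elsewhere (log2 difference 4.71, SE 0.44, edgeR adjusted p 0.0216), while PKM2, which overlaps its end, stood at 217 to 312 in all 6 libraries.

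LCP1, ARHGAP6, CASP2, RCN1, MARVELD1 and LYSMD2 were the other leading lower genes. LCP1, an actin-bundling plastin best known from leukocytes, stood at 2.45 in LAPC4 and 3.01 in LAPC4-CR, against 21.2 (LNCaP), 29.7 (LNCaP-abl), 29.8 (VCaP) and 43.6 (VCaP-CR) (log2 difference -3.49, SE 0.40, edgeR adjusted p 0.0347). ARHGAP6, a GTPase-activating protein, stood at 0.595 and 0.325 against 8.60 to 21.8 (-4.92, SE 0.53, edgeR adjusted p 0.0315). CASP2, the initiator protease caspase-2, stood at 0.485 and 0.288 against 5.64 to 9.95 (-4.36, SE 0.52, edgeR adjusted p 0.0382). In each the LAPC4 pair stayed below the others without overlap. RCN1, a calcium-binding protein of the endoplasmic reticulum, stood at 1.38 and 0.472 against 10.4 to 19.2 (-4.03, SE 0.44, edgeR adjusted p 0.0319), and its pseudogene RCN1P2, with which it may share reads, moved the same way. MARVELD1, a membrane protein of the MARVEL family, stood at 0.862 and 0.584 against 13.5 to 21.3, and LYSMD2, a LysM-domain protein, at 0.390 and 0.596 against 9.77 to 17.2, with edgeR adjusted p of 0.0237 and 0.0347.

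CROT, a peroxisomal carnitine acyltransferase of fatty acid breakdown (chromosome 7, 86812933 to 86867047), was chosen after its values were seen because it shares its upstream stretch with another transcript. It stood at 0.369 in LAPC4 and 0.441 in LAPC4-CR, against 5.65 (LNCaP), 4.95 (LNCaP-abl), 17.6 (VCaP) and 21.4 (VCaP-CR), and did not pass the test (log2 difference -4.93, SE 0.92, edgeR adjusted p 0.105). The long non-coding RNA TP53TG1 starts 172 bases away on the opposite strand and stood at 1.14 and 0.812 in the LAPC4 pair, 9 and 12 counts, against 18.2 to 43.3 elsewhere. Both transcripts were thus low in the same 2 libraries. The stretch between and around the 2 start sites is RefSeq's, plus strand, chr7:87345414-87345663 in GRCh38.p14, with CG dinucleotides in capitals.
CROT upstream: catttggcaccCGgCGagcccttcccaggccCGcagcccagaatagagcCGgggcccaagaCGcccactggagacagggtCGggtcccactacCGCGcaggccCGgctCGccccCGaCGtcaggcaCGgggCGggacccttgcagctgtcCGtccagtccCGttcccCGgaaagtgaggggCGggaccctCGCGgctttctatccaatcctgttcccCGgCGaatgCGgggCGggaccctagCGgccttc

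It holds 25 CG dinucleotides, and 28 over the window of 300 bases. Head-to-head neighbours were then counted for all genes apart in both states. Of the genes at least 2-fold apart from every other library in both states, 164 of 208 higher and 88 of 112 lower genes matched the RefSeq promoter table. Of these, 10 and 11 had a neighbour on the opposite strand starting within 1000 bases, and the neighbour was without overlap in the same direction in 5 (50%) and 4 (36.4%), beside 12.8% and 12% of all tested genes. It was apart by 2-fold in 1 (10%) and 1 (9.09%), the pairs of SEMA5A and CROT, beside 1.27% and 0.686%. These shares rest on 10 and 11 pairs and were not tested. The neighbours were of any gene class and not filtered on counts, whereas the genes beside them are filtered protein-coding genes. The shares thus come from unlike sets, and both neighbours apart by 2-fold are long non-coding RNAs. In the head-to-head pair of LYSMD2 and TMOD2, a tropomodulin gene, TMOD2 stood at 0.490 and 0.418 against 1.25 to 4.41, whereas SDF4 beside the lower gene B3GALT6 stood at 34.9 and 35.3 against 22.7 to 41.8.

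Identity that was kept from the sensitive to the resistant line was counted directly. A gene was taken as apart in both states where both LAPC4 libraries lay at least 2-fold above, or below, all 4 others on log2(level + 1). That held for 208 genes upwards (1.27% of those tested) and 112 downwards (0.686%), and for 57 of the 58 genes called higher and 16 of the 16 called lower. The exception was the phospholipase gene PLA2G3, whose gap was 0.87. In the sensitive state, 800 genes were at least 2-fold higher in LAPC4 than in LNCaP and VCaP (4.9%) and 467 lower (2.86%). Of the 800, 280 (35%) were also at least 2-fold higher in LAPC4-CR than in LNCaP-abl and VCaP-CR, 593 (74.1%) were higher by any amount, and 7 (0.875%) were at least 2-fold lower. Of the 467, 157 (33.6%) kept a 2-fold difference, 360 (77.1%) were lower by any amount, and 1 (0.214%) was at least 2-fold higher. The resistant state gave 729 higher (4.46%) and 497 lower (3.04%). Taken the same way, with the libraries shared between the counts, the LNCaP lineage had 97 genes apart upwards and 76 downwards and kept 39.3% and 29.8% of its sensitive differences, and the VCaP lineage had 386 and 153 and kept 58.2% and 49.4%. EdgeR called 0 genes for LNCaP and 274 higher and 59 lower for VCaP. These 3 sets of counts were not tested against each other.

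**Figure D2:**
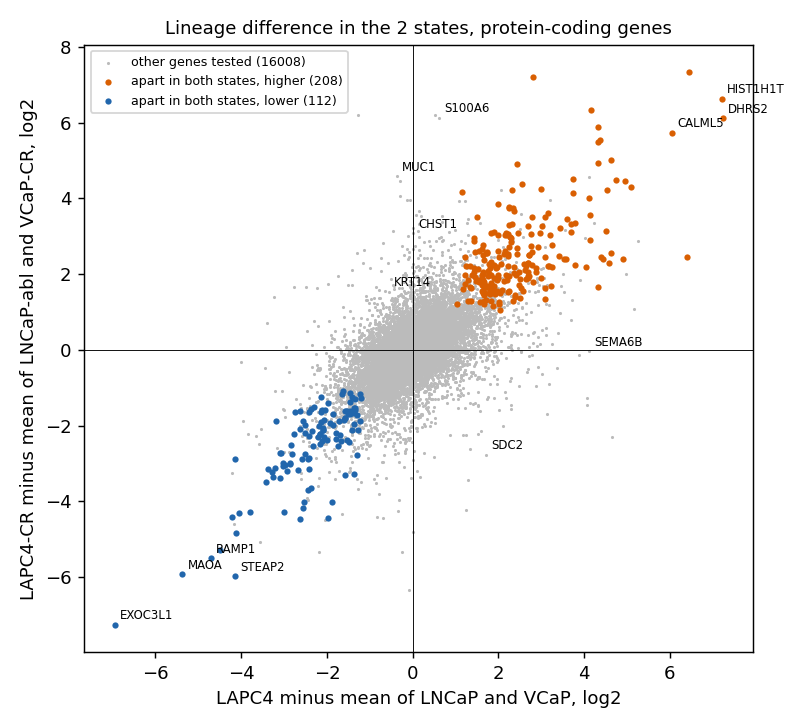
Lineage difference of 16328 protein-coding genes in the sensitive state (x axis, LAPC4 minus the mean of LNCaP and VCaP) and in the resistant state (y axis, LAPC4-CR minus the mean of LNCaP-abl and VCaP-CR), both on log2(TMM-scaled FPKM + 1), 1 point per gene. The 208 higher and 112 lower genes that are apart in both states lie along the diagonal, and MUC1, S100A6, SEMA6B and SDC2 lie off it.

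Some LAPC4 differences were not alike in the 2 states. The test of the interaction of lineage with state called 0 genes in edgeR, with 296 (1.81%) at an unadjusted p under 0.05, and 16 (0.098%) in DESeq2, 4 of them with a positive interaction (LAPC4-CR stood higher relative to its state's other lines than LAPC4 did) and 12 with a negative one. With each resistant line paired to its parent, a fit with 1 residual degree of freedom that was added after the data were seen, edgeR called 0 (1050, or 6.43%, at an unadjusted p under 0.05) and DESeq2 105 (0.643%), 15 of the 16 among them. MUC1, a surface mucin of glandular epithelium, had a level of 0.277 in LAPC4 and 36.3 in LAPC4-CR, against 0.518 to 0.766 in the other 4 libraries (interaction log2 difference 7.22, edgeR adjusted p 0.9999, DESeq2 adjusted p 0.000188). S100A6, a calcium-binding protein, stood at 3.67 in LAPC4 and 198 in LAPC4-CR, against 1.82 to 2.24 (5.90 in edgeR, DESeq2 adjusted p 0.000947). CEACAM6, a surface adhesion molecule, stood at 1.48 and 96.0, against 0.0873 to 0.913 (DESeq2 adjusted p 0.00528). These 3 were near the others' level in LAPC4 and far above it in LAPC4-CR. SEMA6B, another semaphorin, went the other way and stood at 24.9 in LAPC4 and 0.389 in LAPC4-CR, against 0.380 to 0.546 (interaction log2 difference -5.80, DESeq2 adjusted p 0.0032). SDC2, a cell surface proteoglycan, stood at 16.6 in LAPC4 and 0.702 in LAPC4-CR, against 3.44 to 15.4, so LAPC4 was the highest and LAPC4-CR the lowest of the 6 libraries (DESeq2 adjusted p 0.0032). HOXB13, the homeobox factor of prostate epithelium, stood at 43.7 in LAPC4 and 2.30 in LAPC4-CR, against 53.8 to 91.7 (DESeq2 adjusted p 0.0496). The protease gene TMPRSS2 stood at 79.4 and 0.917, against 13.6 to 48.8 (DESeq2 adjusted p 0.00787). All DESeq2 values in this comparison are of the interaction. For these genes the resistant state rests on the 1 library LAPC4-CR.

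Of 24 luminal genes, all tested, edgeR called 0 in either direction. Without overlap were 4 upwards (16.7%, beside 12.8% of all tested genes) and 6 downwards (25%, beside 12%), and the median log2 difference was -1.33 against -0.05 over all genes. KRT8, KRT18 and KRT19 were above the other libraries. KRT8 stood at 89.4 in LAPC4 and 134 in LAPC4-CR, against 20.3 to 48.5, and KRT18 at 68.3 and 106, against 26.9 to 41.9. KRT19, a keratin of simple epithelia, stood at 45.4 and 196, against 2.14 (LNCaP), 2.11 (LNCaP-abl), 22.0 (VCaP) and 12.952 (VCaP-CR) (log2 difference 3.54, SE 1.19, edgeR adjusted p 0.287). The metalloreductases of the prostate surface were below. STEAP2 stood at 3.28 in LAPC4 and 1.89 in LAPC4-CR, against 53.2 (LNCaP), 181 (LNCaP-abl), 106 (VCaP) and 182 (VCaP-CR) (log2 difference -5.48, SE 0.77, edgeR adjusted p 0.0565). STEAP1 stood at 21.3 and 10.5 against 100 to 181 (-3.13, SE 0.51, edgeR adjusted p 0.0810). Both missed the threshold, and both were apart by 2-fold in both states. The pioneer factor FOXA1 overlapped, at 191 and 154 against 90.9 to 168, and so did the adhesion protein EPCAM, at 132 and 151 against 33.5 to 149. Summed over the 24 genes, the level was 1253 in LAPC4 and 1045 in LAPC4-CR, against 1218 to 4787.

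Of 24 basal genes, 22 were tested, 2 were called higher and 0 lower, and 5 (22.7%) were without overlap upwards and 3 (13.6%) downwards. The median log2 difference was 0.02 over the 22 and 0.95 over those with a mean level of at least 1. The called genes were SFN, given above, and NGFR, the low-affinity neurotrophin receptor of basal cells. NGFR stood at 32.7 in LAPC4 and 6.06 in LAPC4-CR, against 0.489 (LNCaP), 0.142 (LNCaP-abl), 0.253 (VCaP) and 0.273 (VCaP-CR) (log2 difference 5.71, SE 0.56, edgeR adjusted p 0.0237). With 5 to 14 counts in each other library, NGFR passed the filter on low counts only through the LAPC4 pair. The filter can thus raise the upward share and the calls of this list. The defining basal genes KRT5 and TP63 stayed low in LAPC4 and LAPC4-CR, KRT5 at 0.580 and 0.499 against 0.488 to 0.604 and TP63 at 0.305 and 0.310 against 0.321 to 0.616. The summed level of the 24 genes was 104 in LAPC4 and 136 in LAPC4-CR, against 33.3 to 56.9, but 7 of the 24 lay under a level of 1 in every library. Of this sum the 2 called genes gave 27.6 (SFN) and 32.7 (NGFR) in LAPC4, and 38.7 and 6.06 in LAPC4-CR. ITGA6 and ITGB4, which pair as the laminin-binding integrin, gave 10.1 and 10.2 in LAPC4, and 36.0 and 21.1 in LAPC4-CR. The higher sum thus rested largely on few members.

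Leukocyte and endothelial markers were low throughout. Of 11 leukocyte and endothelial genes listed in the files, 8 lay under a level of 1 in every library, and the summed level of the list was 6.24 in LAPC4 and 5.64 in LAPC4-CR, against 4.34 to 7.97. PTPRC, which marks leukocytes, stood at 0.394 and 0.374. Of 18 mesenchymal and stromal genes, edgeR called 0, and their summed level was 24.0 in LAPC4 and 16.3 in LAPC4-CR, against 12.4 to 84.5. CDH2, the cadherin of neural and mesenchymal cells, was apart in both states, at 4.52 in LAPC4 and 4.59 in LAPC4-CR against 0.262 to 0.726 (log2 difference 3.19, SE 0.47, edgeR adjusted p 0.0649). VIM was also without overlap upwards, at 1.05 and 1.58 against 0.362 to 0.663, but was not apart by 2-fold. Of 15 neuroendocrine genes, 0 were called and the median was -1.004. Chromogranin A (CHGA) stood at 0.662 and 0.447 in the LAPC4 pair and at 3.48 in VCaP and 32.7 in VCaP-CR.

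**Figure D3:**
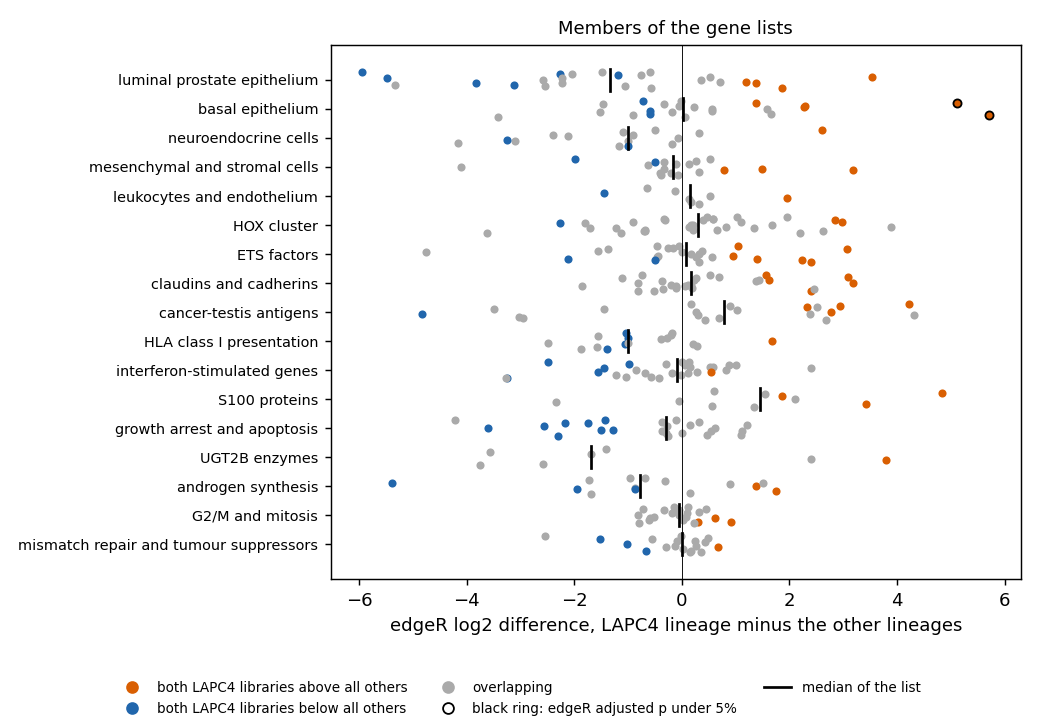
EdgeR log2 difference (LAPC4 lineage minus the other lineages, x axis) of the tested members of 17 gene lists, 1 point per gene, with the vertical bar at the median of each list and no error bars. The 2 ringed genes, SFN and NGFR among the basal genes, passed the 5% threshold, and the luminal list spreads from below -5 to 3.54. The row labelled growth arrest and apoptosis is the list of p53 targets.

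Among ETS factors, claudins and cadherins and HOX genes edgeR called 0. Of 26 ETS factors, 24 were tested, with 6 (25%) without overlap upwards and 2 (8.33%) downwards, beside 12.8% and 12% of all genes. ETV4 stood at 7.53 in LAPC4 and 3.04 in LAPC4-CR, against 0.516 to 0.635 (log2 difference 3.07, SE 0.43, edgeR adjusted p 0.0565). Its close relative ETV5 stood at 2.13 and 2.41 against 0.366 to 0.700 (2.23, edgeR adjusted p 0.105). The epithelial ETS factor ELF3 stood at 47.5 and 20.5 against 2.72 to 8.65 (2.41, SE 0.57, edgeR adjusted p 0.173). These 3 were without overlap but did not pass the test, while ERG and ETV1, given above, were low in LAPC4. Of 30 claudins and cadherins, 27 were tested, with 5 (18.5%) without overlap upwards and 0 downwards. The tight-junction gene CLDN4 stood at 122 and 70.9 against 27.8 to 34.9 (1.56, SE 0.32, edgeR adjusted p 0.127), and CLDN7 at 209 and 114 against 24.7 to 75.6. E-cadherin (CDH1) overlapped, at 95.1 and 167 against 49.2 to 162. Of 39 HOX genes, 32 were tested, with 2 (6.25%) without overlap upwards and 1 (3.12%) downwards, below the shares of all genes. HOXB6 and HOXB9 showed the difference between the LAPC4 libraries, at 0.822 and 0.280 in LAPC4 and 14.976 and 7.95 in LAPC4-CR, with no other library above 1.93 for either.

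Of 30 cancer-testis genes, which are normally active in germ cells and reactivated in tumours, 20 were tested and 0 called, 4 were without overlap upwards (20%) and 1 downwards (5%), and the median log2 difference was 0.79. CTAG1B, which encodes NY-ESO-1, stood at 5.96 in LAPC4 and 4.23 in LAPC4-CR, against 0 in LNCaP and VCaP, 1.06 in LNCaP-abl and 0.0947 in VCaP-CR (4.23, SE 1.01, edgeR adjusted p 0.176). SSX2 stood at 5.49 and 5.69 against 0.185 to 1.99 (edgeR adjusted p 0.205). In the other libraries CTAG1B had 0 to 9 counts and SSX2 3 to 26. Both reached the 2 libraries that the filter on low counts asks for only with the LAPC4 pair. The filter can thus raise the list's upward share and its median. PRAME stood at 153 and 84.1, against 28.4 in LNCaP and 39.6 in LNCaP-abl but 0.555 in VCaP and 1.28 in VCaP-CR (edgeR adjusted p 0.471). The MAGEA genes grouped LAPC4 with LNCaP. MAGEA3 stood at 57.4 and 61.2 in the LAPC4 pair, at 52.997 and 74.1 in the LNCaP pair, and at 0.135 and 2.86 in the VCaP pair. MAGEA10 was the exception, at 0.754 and 0.721 in the LAPC4 pair, 37.0 and 46.3 in the LNCaP pair and 1.32 and 0.831 in the VCaP pair. Several of these genes are near-identical copies, so the division among them is uncertain.

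Of 16 genes of HLA class I presentation, 0 were called, 1 was without overlap upwards (6.25%, beside 12.8% of all genes) and 4 downwards (25%, beside 12%), and the median was -0.999. B2M, the light chain of class I molecules, stood at 90.9 in LAPC4 and 78.3 in LAPC4-CR, against 123 to 241 (log2 difference -1.04, edgeR adjusted p 0.302), whereas HLA-E stood at 17.6 and 9.88 against 0.476 to 9.27. Of 28 interferon-stimulated genes, 0 were called, 1 was without overlap upwards (3.57%) and 5 downwards (17.9%). IFIT5, an antiviral RNA-binding protein, stood at 1.21 and 0.936 against 4.51 to 9.68 (-2.49, SE 0.51, edgeR adjusted p 0.125). Of 24 tested genes listed as p53 targets, which act in growth arrest, DNA repair and apoptosis, 0 were called, 0 were without overlap upwards and 8 downwards (33.3%). The activity of p53 itself was not measured. The cell cycle inhibitor CDKN1A stood at 5.59 in LAPC4 and 7.90 in LAPC4-CR, against 33.8 (LNCaP), 40.9 (LNCaP-abl), 30.9 (VCaP) and 15.98 (VCaP-CR) (-2.17, edgeR adjusted p 0.163). TP53INP1 stood at 11.7 and 10.3 against 36.6 to 122 (-2.57, SE 0.58, edgeR adjusted p 0.158). AEN, a nuclease of the apoptotic response, stood at 10.5 and 11.1 against 23.6 to 36.5 (-1.43, SE 0.36, edgeR adjusted p 0.187). The other 5 without overlap were FAS, SESN1, RRM2B, BTG2 and CCNG1, with log2 differences from -3.61 to -1.28. Other genes of this list overlapped, such as MDM2 at 6.80 and 21.7 against 11.6 to 20.0.

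Steroid enzymes gave single members. UGT2B enzymes inactivate androgens by glucuronidation, and of the 7, 0 were called. UGT2B11 stood at 59.5 in LAPC4 and 7.91 in LAPC4-CR, against 0.606 to 3.04 (log2 difference 3.79, SE 0.52, edgeR adjusted p 0.0545), while the list median was -1.70. UGT2B17 stood at 3.59 and 1.64, against 3.50 to 637, the highest being LNCaP-abl. Of 18 genes of androgen synthesis, 14 were tested and 0 called. SRD5A1, which makes dihydrotestosterone from testosterone, stood at 20.3 and 12.4 against 4.16 to 5.71 (1.76, SE 0.38, edgeR adjusted p 0.145). AKR1C3, which makes testosterone from androstenedione, stood at 0.25035 and 0.268, against 0.719 and 0.935 in the LNCaP pair and 28.0 and 16.7 in the VCaP pair. S100 proteins had the highest median of the 17 gene lists, 1.45 over 10 tested of 18, with 0 called, 3 without overlap upwards (30%) and 0 downwards. S100A11 stood at 325 in LAPC4 and 272 in LAPC4-CR, against 49.9 to 105 (1.87, SE 0.36, edgeR adjusted p 0.112), and S100P at 21.0 and 49.7 against 0.738 to 10.4. Genes of G2/M and mitosis (median -0.06, 22 tested, 0 called) and of mismatch repair and tumour suppression (median 0.00, 18 tested, 0 called) were at the level of all genes.

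At 12 places, at least 3 genes apart in both states in the same direction lay close together, with gaps of at most 1 Mb. Genes that were not apart could lie between them. In those spans 6.67% (3 of 45, on chromosome 17) to 75% of the tested genes were apart, and 1 span on chromosome 1 had 5 of 47 (10.6%). Each span begins and ends on a gene that is apart. Its share is thus raised by construction above the 1.27% upwards or 0.686% downwards of all genes. How many such places scattered genes would give was not tested. These places and the families below were chosen after the values were seen and are given without a test. The protocadherin beta cluster on chromosome 5 (140454411 to 140607983) encodes adhesion proteins chosen in combination by neurons, and 6 of the 15 tested genes in that span were apart. PCDHB13 was called, at 11.979 in LAPC4 and 15.5 in LAPC4-CR, against 1.87 (LNCaP), 0.980 (LNCaP-abl), 1.46 (VCaP) and 1.30 (VCaP-CR) (log2 difference 3.32, SE 0.40, edgeR adjusted p 0.0391). PCDHB8 stood at 14.9 and 28.4 against 0.391 to 4.14 (edgeR adjusted p 0.194), and PCDHB7 at 4.48 and 7.08 against 0.356 to 0.806 (edgeR adjusted p 0.0565). Over the cluster, 9 of 14 tested genes (64.3%) were without overlap upwards and 0 downwards, beside 12.8% and 12% of all tested genes. The median log2 difference was 2.04. The adjoining alpha and gamma clusters had 5 of 15 (33.3%) and 7 of 18 (38.9%) without overlap upwards. Both had 0 apart by 2-fold, and their medians were 1.92 and 0.99. Among those without overlap, PCDHA1, PCDHA4, PCDHA6, PCDHA7, PCDHGC4 and PCDHGC5 had at most 13 counts in any other library. They reached the 2 libraries that the filter on low counts asks for only with the LAPC4 pair. The filter can thus raise the upward shares and medians of these 2 clusters. In the alpha cluster LAPC4-CR was the highest library for all 15 genes, and LAPC4 lay within or below the range of the other lineages for 10. The median level of the 15 was 0.317 in LAPC4 and 2.12 in LAPC4-CR, against 0.0890 to 0.286, so the alpha difference rested mainly on LAPC4-CR. Over the gamma cluster it was 0.589 and 1.13, against 0.359 to 0.662, and over the beta cluster 4.78 and 5.10, against 0.402 to 1.70.

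The histone genes did not move as 1 group. Of 68 tested, 3 were called higher and 0 lower, 9 were without overlap upwards (13.2%, beside 12.8% of all genes) and 6 downwards (8.82%, beside 12%), and the median was 0.17. HIST1H1D, which lies with HIST1H1T and HIST1H4D, stood at 711 in LAPC4 and 476 in LAPC4-CR, against 2.05 and 1.36 in the LNCaP pair and 230 and 192 in the VCaP pair. HIST1H2BJ went the other way, at 78.3 and 85.1 against 193 to 396 (log2 difference -1.71, edgeR adjusted p 0.163). On the X chromosome (7770303 to 8394550), 3 of 4 tested genes in the span were of the testis family VCX. VCX stood at 4.47 and 10.8 against 0 to 0.489 (edgeR adjusted p 0.0410) and VCX2 at 6.27 and 5.92 against 0 to 0.536 (edgeR adjusted p 0.0494), and since these copies are near-identical the split among them is uncertain. With 0 to 5 counts in each other library, VCX and VCX2 passed the filter on low counts only through the LAPC4 pair. The 3 of 4 is therefore partly set by the filter. On chromosome 18 (2906992 to 3268282), 3 of 4 tested genes were apart. There the myosin light chain gene MYL12A stood at 421 and 283 against 57.4 to 78.5, its neighbour MYL12B at 425 and 495 against 109 to 176, and the lipid phosphatase gene LPIN2 at 43.3 and 41.8 against 8.19 to 12.022. MYL12A was called (log2 difference 2.28, SE 0.31, edgeR adjusted p 0.0494). On chromosome 19 (14353213 to 15906676), 4 of 26 tested genes were apart downwards, CD97, ILVBL and CYP4F11 among them.

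**Figure D4:**
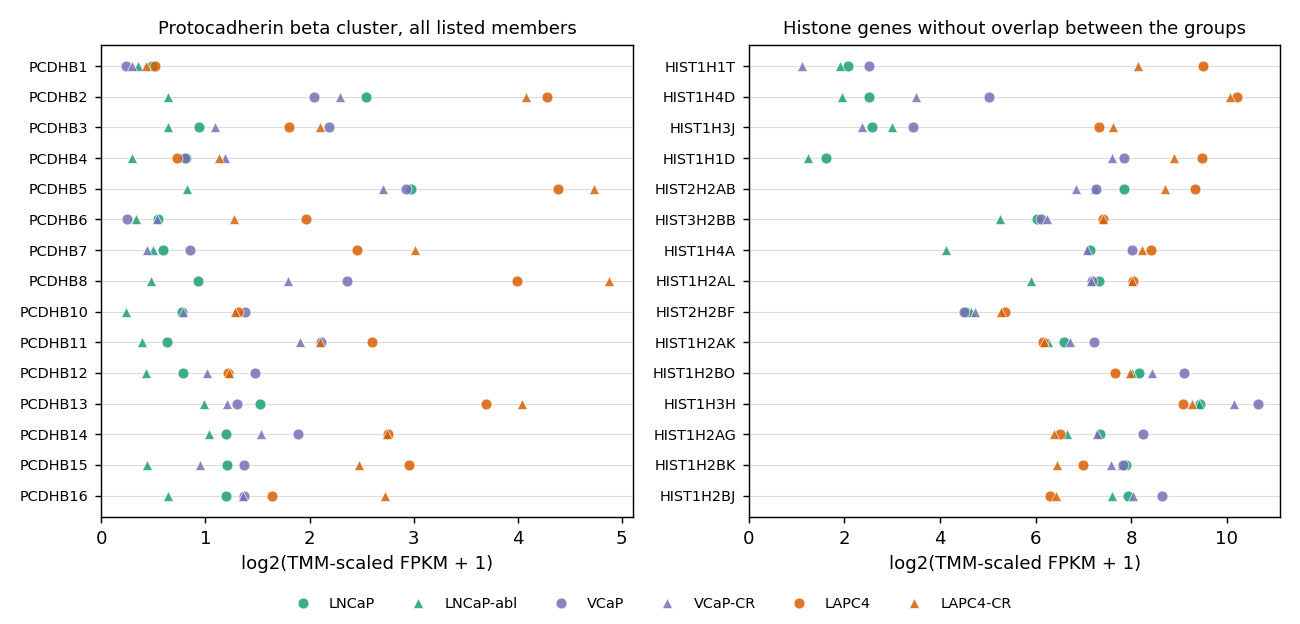
Level of the 15 protocadherin beta genes (left) and of the 15 tested histone genes without overlap between the groups (right), as log2(TMM-scaled FPKM + 1), 1 point per library and no error bars. In the left panel the orange LAPC4 pair lies to the right of the other 4 points for 9 genes, and in the right panel it lies to the right for 9 and to the left for 6.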

How the data were processed

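Total RNA of 6 prostate cancer lines, 1 library each, was sequenced with a SOLiD total RNA kit, per the labels' protocols. The authors deposited, per the file headers, a raw count and an FPKM per gene and library. The submitters' processing notes name HTSeq and hg18. Aligner, annotation and strand setting: not given in the sources used here. Gene length was taken from the tables that list it and used for LAPC4-CR, and FPKM rebuilt from counts and lengths differed from the deposited FPKM by at most 1.4%.

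Counts of protein-coding genes were fitted in edgeR 4.0.16 (R 4.3.3) with TMM factors, filterByExpr, state and lineage (LAPC4 or other), quasi-likelihood tests and Benjamini-Hochberg adjustment over 16328 genes at 5%. The fit had 3 residual degrees of freedom, and the interaction fit 2. Levels are counts relative to gene length and to the TMM-scaled protein-coding total, in FPKM units, with a pseudocount of 1 on the log2 scale. Deposited FPKM as it stood, DESeq2 1.42.0, limma 3.58.1, other scalings, filters, models, thinning and leaving out libraries were alternatives. On simulated counts at a dispersion of 0.24 over 16328 genes, the test recovered 26% of 4-fold and 99% of 16-fold changes, 100 genes each, with 3 false calls. The simulated libraries were independent, had the same dispersion for every gene, and were changed only in genes with higher counts. The real libraries come in pairs that share a cell line, so these rates need not hold for them.

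The members and gene lists were chosen with earlier results of these data known. Named genes were the 12 higher and 12 lower called genes with the widest gap to the nearest other library, list members called or apart in both states (at most 6 a list, otherwise the member of the highest level), the 6 smallest interaction p-values, and the label checks KLK3, ERG and ETV1. Some results under this rule are not reported here. Other genes are illustrations picked after their values were seen. Of the genes tested, 78.2% matched a RefSeq promoter, too few for a comparison of promoter composition between gene sets, and none is given. The depth of 8661337 to 22433655 counts leaves levels under 1 resting on few counts.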

Additional observations from a re-analysis of the deposited data

Results flagged for a closer look

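In 7 of 57 named genes, 1 of the 4 libraries of the LNCaP and VCaP lineages stood far from the other 3, by a gap that took more of the group's range than Dixon's 95% limit for 4 samples. Chance passes this limit in about 1 in 20 groups. The share of the range was 0.844 for IVD (VCaP lowest, 25.1 against 29.9 to 30.9) and 0.835 for HEXA (LNCaP lowest), a narrow spread beside the distance to the LAPC4 pair in both genes. It was 0.882 for ENO2, 0.857 for CD68 and 0.875 for CTAG1B, in each case with LNCaP-abl highest. For S100A6 it was 0.923 and for ETV1 0.945, with LNCaP highest.

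For 8 genes LAPC4 lay at least 2-fold to one side of LNCaP and VCaP in the sensitive state and LAPC4-CR at least 2-fold to the other side of LNCaP-abl and VCaP-CR in the resistant state. The edgeR interaction test called none of them (adjusted p 0.9999 each). The change of the lineage difference from the sensitive to the resistant state, in log2(level + 1), was 3.11 for the receptor phosphatase gene PTPRU, -4.48 for SDC2, -3.74 for STXBP6, -3.46 for ACP6, -3.19 for LYPD6, -3.16 for HTATIP2, -2.42 for TMEM42 and -2.36 for NLGN1. PTPRU stood at 0.662 in LAPC4 and 9.91 in LAPC4-CR, against 1.95 to 4.63 in the other 4. A further 3 named genes changed sides by any amount, at 4.95 for MUC1, 2.09 for KRT14 and -2.14 for ENO2.

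The libraries listed 51698 entries of all classes, of which 19959 were protein-coding. Outside the protein-coding genes, 44 entries were apart by 2-fold upwards in both states and 18 downwards. Each had at least 50 counts in every library of the higher group. That group is 2 libraries for the upward entries and 4 for the downward ones, so the 2 counts cannot be compared with each other. How many entries of these classes reached 50 counts was not counted, so the 44 and 18 have no share beside them. The gap on log2(level + 1) was 6.17 for the small nucleolar RNA SNORD123, beside SEMA5A, with 625 and 266 counts in LAPC4 and LAPC4-CR and 0 or 1 in each other library. It was 5.38 for the processed transcript RP11-206M11.7, with 1579 and 1533 counts against 3 to 11, and 3.37 for the long non-coding RNA RP11-441L11.1, with 97 and 241 against 0 to 4. Downwards it was 3.17 for TP53TG1, 3.03 for the pseudogene RCN1P2 and 2.77 for SNORA77. RCN1P2 may share reads with RCN1. Upward entries such as the pseudogenes KRT8P45 and TMSB10P1 may likewise share reads with KRT8 and TMSB10, which were also higher in both LAPC4 libraries.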

How the results depend on the processing

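The calls of 58 higher and 16 lower genes moved with the model: 528 and 537 with DESeq2, 120 and 52 without the state term, 569 and 355 with a term for each lineage, 1162 and 1280 without the LNCaP lineage and 229 and 200 without the VCaP lineage. DESeq2, the term for each lineage and the fits without a lineage all kept the 58 and the 16. Leaving out 1 library gave 0 to 27 higher and 0 to 9 lower. Limma gave 57 and 18, of which 48 and 13 were shared. The interaction gave 16 genes with DESeq2 and 0 in edgeR. The 208 and 112 genes apart in both states became 100 and 39 with a pseudocount of 5, 50 and 27 with a 4-fold gap, and 204 downwards with a pseudocount of 0.25. Without 1 library they ranged over 216 to 545 upwards and 136 to 285 downwards. With a mean level of at least 1, list medians moved to 0.95 (basal), -1.661 (neuroendocrine), -0.33 (mesenchymal), -1.42 (leukocyte and endothelial), 0.24 (ETS), 0.37 (claudins and cadherins), -0.52 (interferon) and -0.018 (androgen synthesis), and with all gene classes to 0.14 (ETS), 0.21 (claudins and cadherins), -0.82 (androgen synthesis) and 0.042 (mismatch repair). The cause was not tested.

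The 25 named genes that were called kept their direction in all 450 alternative values and stayed under 5% in 334. All 25 were chosen as called and were without overlap in these same libraries. Their direction could therefore hardly reverse when libraries were left out or rescaled, and its being kept is no separate check. Some differences reversed when 1 library was left out, and ranged from -3.04 to 0.065 for ENO2 (reversed without LAPC4-CR), -1.23 to 5.99 for MUC1 (LAPC4-CR), -1.30 to 3.81 for KRT14 (LAPC4-CR), -0.17 to 5.63 for SEMA6B (LAPC4), -1.095 to 0.13 for TOP2A (VCaP-CR) and -4.91 to 0.28 for ETV1 (LAPC4, and LNCaP at 0.08). Without the VCaP lineage TOP2A was 0.97 and ERG 0.56. SDC2, 0.06 with all libraries, was -0.53 with limma, -0.028 with upper quartile factors, -0.026 with a term for each lineage, 0 when thinned, -1.04 without LNCaP, -1.376 without VCaP, -4.015 without LAPC4, 1.88 without LAPC4-CR, -1.03 without the LNCaP lineage and -0.84 without the VCaP lineage. The replicate numbers pair no libraries across the groups, but each resistant line has its parent. With that pairing as a replicate block, added after the data were seen, the interaction gave 0 genes in edgeR and 105 in DESeq2. The lineage difference itself allows no such block, since a lineage lies in 1 group.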

Other observations

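Several further called genes belong to groups not described above and were chosen here after their values were seen. Differentiation and growth regulators were among them. KLF5, a transcription factor of epithelial growth, stood at 11.986 in LAPC4 and 42.4 in LAPC4-CR, against 1.39 to 2.26 in the other 4 libraries (log2 difference 3.57, edgeR adjusted p 0.0410). NR2F1, an orphan nuclear receptor, stood at 10.0 and 30.2 against 0.449 to 1.07 (4.85, edgeR adjusted p 0.0456). IER3, an immediate early gene, stood at 37.6 and 55.9 against 1.44 to 3.30 (4.43, edgeR adjusted p 0.0285). The secreted vasoconstrictor EDN1, endothelin-1, stood at 6.65 and 10.952 against 0.418 to 0.663, and the retinoic acid-induced receptor gene GPRC5A at 14.3 and 15.3 against 0.796 to 1.27. All 5 were without overlap.

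On the lower side, MYH14, a non-muscle myosin heavy chain, stood at 0.343 in LAPC4 and 0.592 in LAPC4-CR, against 5.59 to 16.5 (log2 difference -4.22, edgeR adjusted p 0.0494). MAOA, which breaks down monoamines, stood at 1.13 and 0.480, against 137 and 248 in the LNCaP pair and 55.1 and 31.5 in the VCaP pair, and did not pass the test (-7.21, SE 1.30, edgeR adjusted p 0.0978). By chromosome, the share of tested genes apart downwards was 1.95% on X (12 of 614) and 1.92% on chromosome 15 (10 of 520), which holds IVD, HEXA and LYSMD2, beside 0.686% over all genes. Upwards it was 2.44% on X (15 of 614) and 0.769% on chromosome 15 (4 of 520), beside 1.27%. These shares were not tested.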
